A study of Mus musculus with 13 samples.

Results

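The mitochondrial ribosomal protein genes were examined in RNaseq of whole mouse liver. They were the rows of the count table whose mouse symbol begins with Mrpl or Mrps followed by a digit. Of 83 such rows, 5 with a pseudogene symbol (-ps) and 1 with an unscaled mean under 1 CPM over the mice were left out. This gave 77 members of 53392 genes. CPM is the count scaled to a common library size. It includes TMM factors unless a level is called unscaled. By subunit, 50 members belong to the large subunit and 26 to the small subunit, and Mrps36, named as a small subunit protein, is now placed in the oxoglutarate dehydrogenase complex. The libraries came from 13 female mice, 8 to 14 weeks old at the start, homozygous for Albumin-Cre and for Rosa26-loxP-stop-loxP-rtTA, that received 28% of calories from ethanol (Etoh) for 4 weeks. ASAH+ mice also carried the TRE-ASAH1 transgene, which encodes an acid ceramidase. Albumin-Cre limits rtTA to hepatocytes, and doxycycline (Dox) lets rtTA switch the transgene on. Dox-fed ASAH- mice (n = 4) had Etoh and 200 mg/l Dox but no ceramidase transgene, Dox-fed ASAH+ mice (n = 5) had the same Etoh-Dox diet with the transgene induced, and Etoh-only ASAH+ mice (n = 4) had the Etoh diet without Dox, so that the transgene was not induced. ASAH- mice without Dox were not analysed here. Within ASAH+ mice Dox cannot be told apart from induction of the transgene, and between Dox-fed ASAH- mice and Etoh-only ASAH+ mice it cannot be told apart from genotype.

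The mitochondrial ribosome translates the messenger RNAs (mRNAs) of mitochondrial DNA, all of which encode subunits of the oxidative phosphorylation complexes. Its ribosomal RNAs come from mitochondrial DNA, whereas its proteins are encoded in the nucleus, made in the cytosol and imported. Some of these proteins have a counterpart in the bacterial ribosome and others occur only in mitochondria. Tetracyclines such as Dox bind the small ribosomal subunit of bacteria and also that of mitochondria, where they slow translation. The question put to the data was whether the mRNAs of the ribosome's proteins differed with Dox, with the transgene, or with both.

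Library totals ran from 17819486 to 35358711 counts, and each member had at least 77 counts in every mouse. Asah1, the targeted gene, had 49.0 ± 6.90 unscaled CPM in Dox-fed ASAH- mice (SD, n = 4) and 12888 ± 2515 in Dox-fed ASAH+ mice (SD, n = 5). In Etoh-only ASAH+ mice it had 45.9 ± 1.33 unscaled CPM (SD, n = 4). These levels match the grouping by sample description. Titles of ASAH+ samples state the reverse diet and were used for replicate numbers alone. Of the 8 hepatocyte markers examined, which included Alb and Ttr, none was at 0 in all mice. Their summed level was 90404 to 137247 unscaled CPM.

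The highest level per length of RNA belonged to Mrpl12 (ENSMUSG00000039640; chromosome 11, 120484613 to 120489065, plus strand), the protein of the ribosome's stalk, which also binds mitochondrial RNA polymerase. On the scale of mean CPM per kilobase of merged exons it reached 43.1, followed by the small subunit protein Mrps21 at 26.6 and the large subunit protein Mrpl27 at 24.4. At the other end stood Mrps25 at 1.33, Mrpl33 at 1.40 and Mrpl19 at 1.81 CPM per kilobase. Over the 77 members the median was 8.57 CPM per kilobase. Class medians were 8.36 for the 29 large subunit members with a bacterial counterpart, 10.2 for the 21 mitochondria-specific members of the large subunit, 7.19 for the 16 small subunit members with a bacterial counterpart and 7.20 for the 10 mitochondria-specific members of the small subunit. Merged exons count every annotated exon, so genes with long alternative ends read low on this scale. Per kilobase of the longest transcript, Mrpl12 stayed first at 50.1, and Mrpl33 came to 3.74. On that scale Mrps21 came to 40.2 and Mrpl27 to 31.7.

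**Figure D1:**
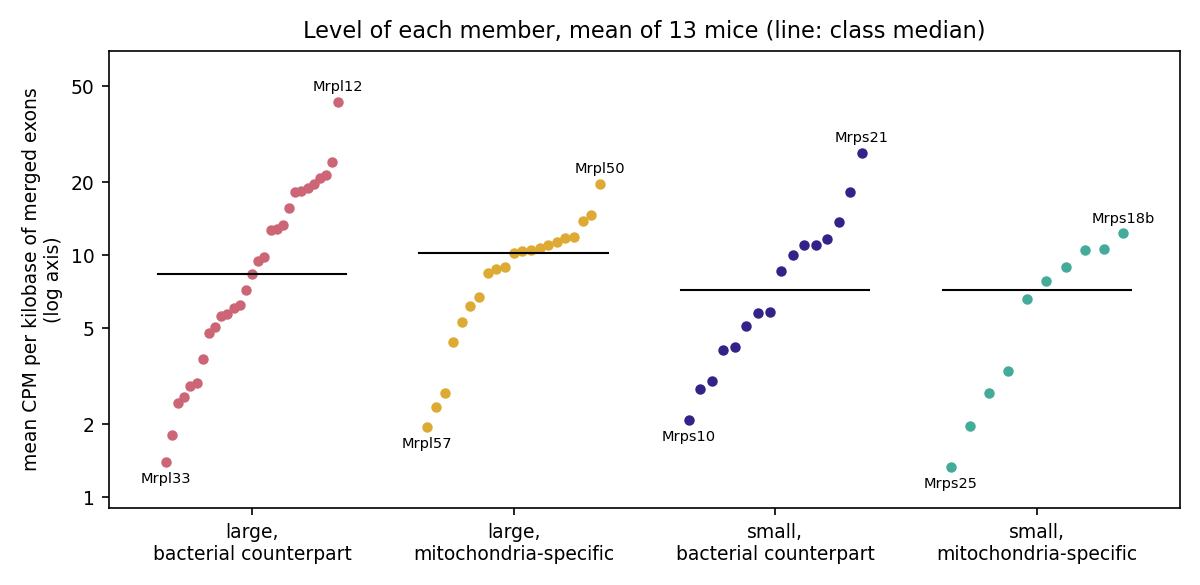
Mean level of each mitoribosomal mRNA over 13 mice, in CPM per kilobase of merged exons on a log axis, by subunit class, with the class median as a line. Levels run from 1.33 (Mrps25) to 43.1 (Mrpl12), and the 4 class medians lie between 7.19 and 10.2.

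Per kilobase of merged exons, Mrps21 and Mrpl27 lay within the spread between mice of each other, as did Mrps25 and Mrpl33. Mrps21, at 20.5 ± 1.497, 19.4 ± 1.65 and 18.998 ± 2.16 CPM in Dox-fed ASAH- mice, Dox-fed ASAH+ mice and Etoh-only ASAH+ mice (SD, n = 4, 5 and 4), had an SD of 0.13 on the log2 scale within groups. Mrpl27 had 25.1 ± 2.10, 23.8 ± 1.44 and 23.1 ± 1.27 CPM in the same groups, with an SD of 0.099. The low members had 8.57 ± 0.640, 8.85 ± 0.242 and 8.84 ± 1.52 CPM for Mrps25, 10.45 ± 1.34, 10.3 ± 0.839 and 10.1 ± 0.330 CPM for Mrpl33, and 10.4 ± 0.897, 9.85 ± 0.835 and 9.31 ± 0.677 CPM for Mrpl19. The median SD within groups was 0.13 over the members and 0.24 over the 14317 genes tested, on the scale of log2 CPM. It was smallest for Mrps5 (0.071) and largest for Mrps12 (0.28).

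Summed over all members, the level was 1614 ± 66.6 CPM in Dox-fed ASAH- mice (SD, n = 4), 1574 ± 52.6 CPM in Dox-fed ASAH+ mice (SD, n = 5) and 1526 ± 17.3 CPM in Etoh-only ASAH+ mice (SD, n = 4). The mice ranged from 1559.8 to 1706 CPM, from 1492 to 1631 CPM and from 1511 to 1546 CPM, so on this TMM-scaled level each pair of groups overlapped except for the Dox-fed ASAH- mice and the Etoh-only ASAH+ mice. As an unscaled share of each mouse's counts, the members took 0.154 to 0.169%, 0.158 to 0.162% and 0.149 to 0.153% in the same order, and all 9 Dox-fed mice lay above the 4 Etoh-only mice. The closest were ASAH- Etoh-Dox replicate 3 at 0.1536% and ASAH+ Etoh replicate 1 at 0.1526%. How many genes or gene lists separate these mice on the unscaled measure was not computed. Large and small subunits kept nearly the same proportion. Large subunit mRNAs were 2.35 ± 0.049, 2.36 ± 0.056 and 2.31 ± 0.044 times the small subunit mRNAs in the 3 groups, a difference smaller than the spread between mice.

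**Figure D2:**
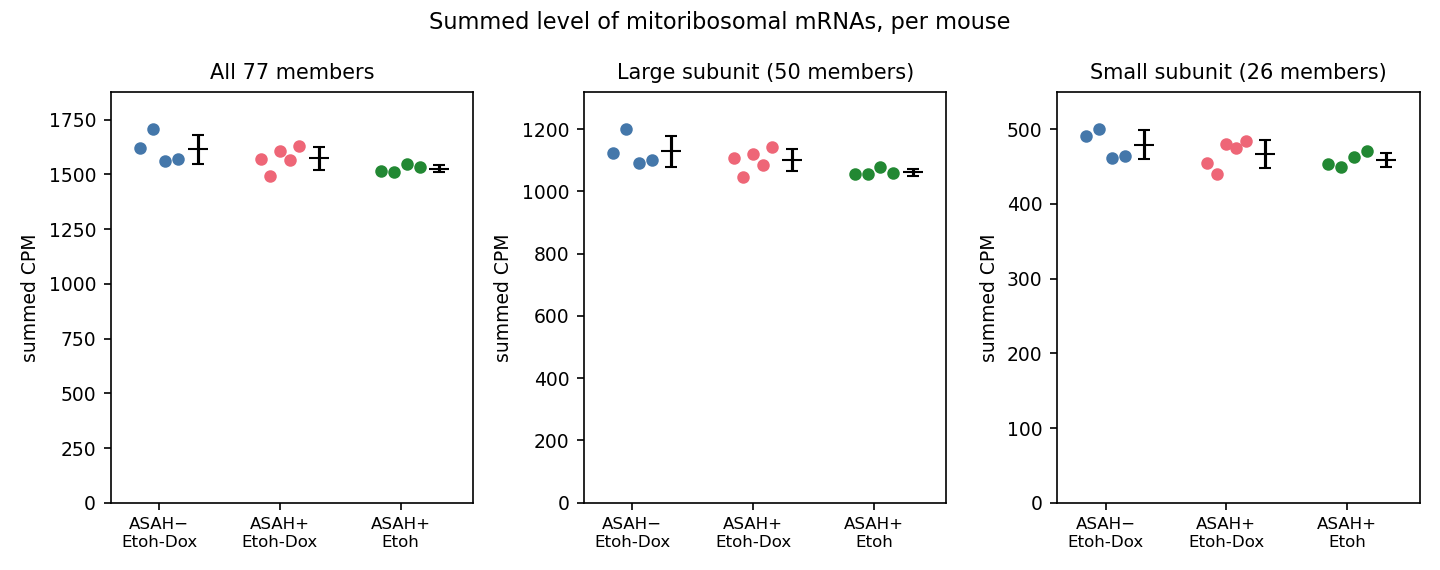
Summed CPM of all members, of the 50 large subunit members and of the 26 small subunit members. Each point is a mouse, and bars give the group mean ± SD (n = 4, 5 and 4). All members together lie between 1492 and 1706 CPM, with the 4 Etoh-only ASAH+ mice between 1511 and 1546 CPM.

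In the comparison of both Etoh-Dox groups with Etoh-only ASAH+ mice (9 mice against 4), no member was differentially expressed, while 11 members had an unadjusted p-value under 0.05 and all 11 were higher on Etoh-Dox. The largest differences were those of Mrpl57, Mrpl54, Mrps12, Mrpl53 and Mrpl14, at 1.25 to 1.33 times the Etoh level. Of the 77 members, 55 lay above 0 and 22 below. The median log2 fold change was 0.061 over the members and 0.014 over all genes tested, with a median standard error of 0.086 for a single member, and 71 members lay within 0.25 of no change. With edgeR's quasi-likelihood fit and p-values adjusted by Benjamini-Hochberg over all genes, called at an adjusted p under 0.1, 0 of 77 members passed (0.0419% of all genes tested did). In 0 members did the 9 mice lie apart from the 4, beside 0.95% of all genes. At an unadjusted p under 0.05, 14.3% of the members were higher and 0 were lower, beside 5.62% and 4.48% of all genes tested. DESeq2 on all mice called 1 member, Mrpl53 (adjusted p = 0.0789), among 215 of 28532 genes called. DESeq2 fitted to the same mice as 2 groups called 0 members and 226 of 28536 genes. Limma-voom called 0 members and 4 of 14317 genes. The count of 11 was 5 without ASAH+ Etoh replicate 2, and 7 without ASAH+ Etoh replicate 3, ASAH+ Etoh replicate 4 or ASAH+ Etoh-Dox replicate 5. Of all genes, 804 of 14317 were higher at an unadjusted p under 0.05 with all mice. In the fits named, in the same order, 612 of 14503, 603 of 14544, 712 of 14525 and 743 of 14264 were higher.

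**Figure D3:**
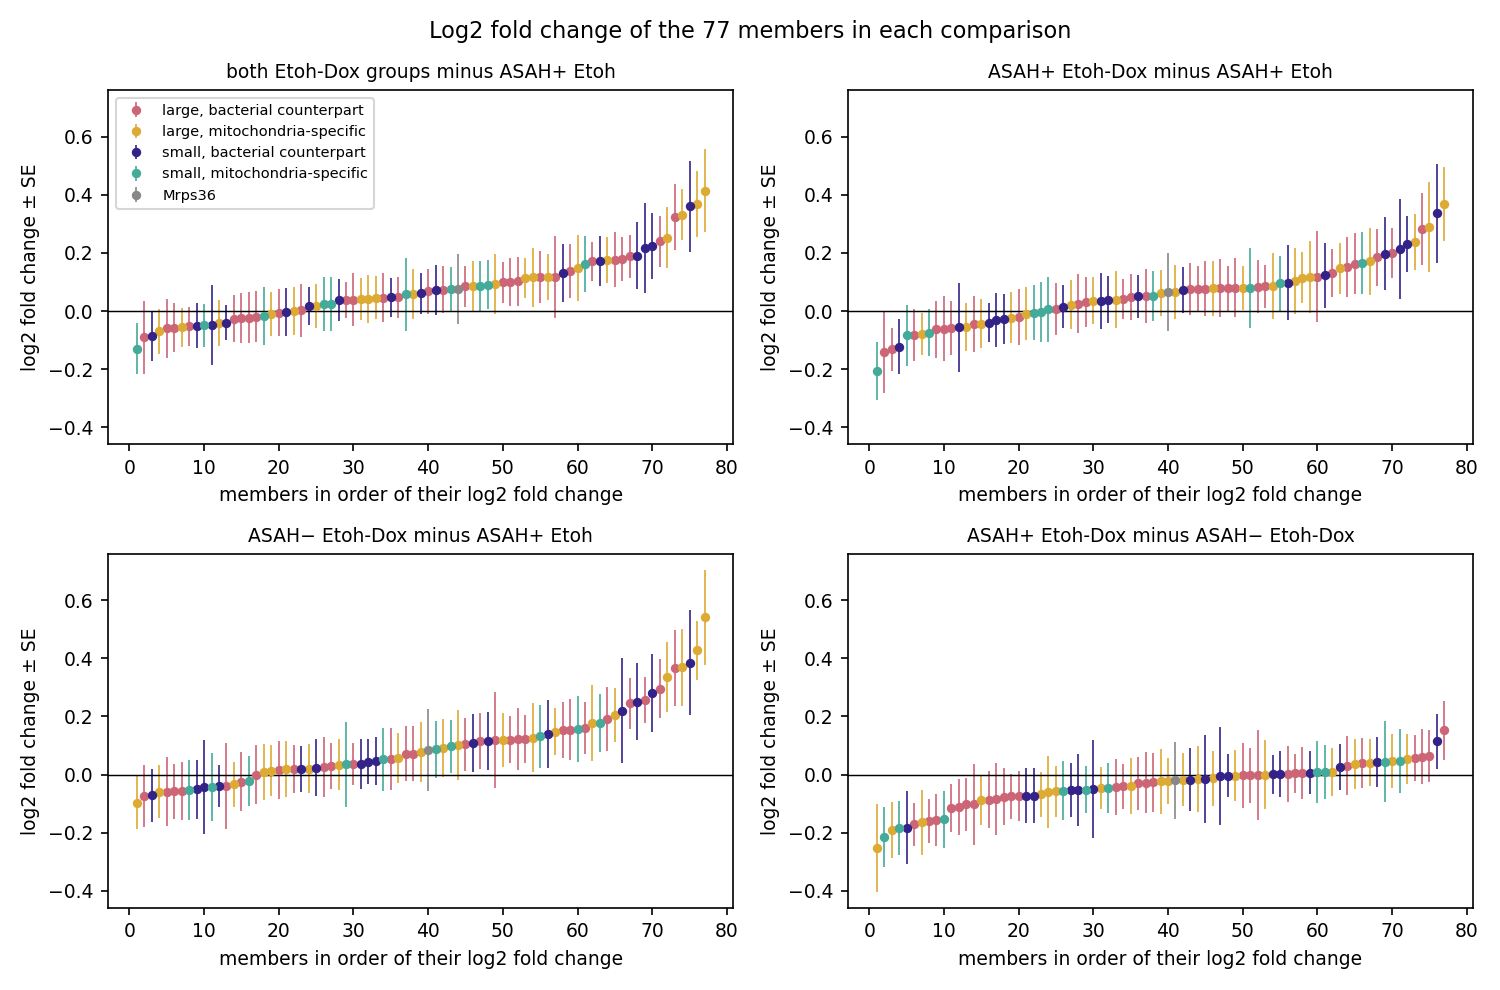
Log2 fold change ± standard error of the 77 members, in order of their value, for the 4 comparisons. Points sit mostly above 0 in the 3 comparisons with Etoh-only ASAH+ mice (55, 54 and 60 of 77), which share those 4 control mice, and mostly below 0 between Dox-fed ASAH+ and ASAH- mice (52 of 77).

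Mrpl53 (ENSMUSG00000030037; chromosome 6, 83109040 to 83109939, plus strand), a mitochondria-specific protein of the large subunit, had the smallest p-value. Mrpl53 stood at 12.7, 13.02, 13.4 and 11.004 CPM in the 4 Dox-fed ASAH- mice, at 11.49, 9.90, 10.51, 10.6 and 12.4 CPM in the 5 Dox-fed ASAH+ mice and at 8.89, 8.95, 9.23 and 10.2 CPM in the 4 Etoh-only ASAH+ mice. The Etoh-Dox mice were mostly above the Etoh mice, with 35 of 36 pairs of mice in that direction. The log2 fold change was 0.33 (standard error 0.088, edgeR adjusted p = 0.306, exact two-sided permutation p = 0.00420, with 0.0014 the smallest this design allows). Mrpl53 overlaps the gene model Gm42688 on the same strand and shares 665 of its 788 words of 31 bases with it, so the division of reads between the 2 rows is uncertain. With the counts of both rows summed, the log2 fold change was 0.29 (standard error 0.085, edgeR adjusted p = 0.316).

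Mrpl54 (ENSMUSG00000034932; chromosome 10, 81264713 to 81266934, minus strand), also specific to the mitochondrial large subunit, was 9.72 ± 1.28 CPM in Dox-fed ASAH- mice and 9.72 ± 1.45 CPM in Dox-fed ASAH+ mice, against 7.53 ± 0.504 CPM in Etoh-only ASAH+ mice (SD, n = 4, 5 and 4). Levels of Mrpl54 were 8.17, 10.7, 10.8 and 9.18 CPM (ASAH- Etoh-Dox), 11.99, 8.10, 9.68, 8.98 and 9.84 CPM (ASAH+ Etoh-Dox) and 8.20, 7.12, 7.65 and 7.16 CPM (ASAH+ Etoh). The highest mouse was ASAH+ on Etoh-Dox, and 2 Dox-fed mice lay below the highest Etoh mouse. Its log2 fold change was 0.37 (standard error 0.12, edgeR adjusted p = 0.341). For Mrpl57, the level was 5.88, 7.39, 7.79 and 6.18 CPM in Dox-fed ASAH- mice, 5.58, 5.00, 4.99, 6.65 and 6.41 CPM in Dox-fed ASAH+ mice and 4.74, 3.66, 5.89 and 4.45 CPM in Etoh-only ASAH+ mice. Mrpl57 (ENSMUSG00000021967; chromosome 14, 57826234 to 57829296, plus strand) is another mitochondria-specific large subunit protein and had the fewest counts of all members, 77 to 202 per mouse. Its log2 fold change of 0.41 (standard error 0.14, edgeR adjusted p = 0.367) was the largest of the 77 in this comparison, and ASAH+ Etoh replicate 3 lay within the range of the Etoh-Dox mice.

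The Dox-fed ASAH- mice had 23.0, 24.8, 21.7 and 17.7 CPM of Mrpl14, the Dox-fed ASAH+ mice 23.4, 15.8, 20.4, 21.1 and 22.1 CPM, and the Etoh-only ASAH+ mice 15.7, 15.5, 19.3 and 17.1 CPM. The low Dox-fed mice, 1 in each group, lay among the Etoh mice. Mrpl14 (ENSMUSG00000023939; chromosome 17, 45686322 to 45698495, plus strand), which has a bacterial counterpart in the large subunit, had a log2 difference of 0.32 (standard error 0.11, edgeR adjusted p = 0.374). Levels of Mrpl55 were 10.1, 9.70, 8.73 and 9.004 CPM (ASAH- Etoh-Dox), 9.04, 9.14, 9.03, 8.30 and 7.93 CPM (ASAH+ Etoh-Dox) and 7.51, 6.75, 8.39 and 7.97 CPM (ASAH+ Etoh). Mrpl55 (ENSMUSG00000036860; chromosome 11, 59202486 to 59206134, plus strand), a further large subunit protein with a bacterial counterpart, overlapped between Etoh-Dox and Etoh in 2 Dox-fed ASAH+ mice and had a log2 difference of 0.24 (standard error 0.088, edgeR adjusted p = 0.390, exact permutation p = 0.00699). The remaining 6 members with an unadjusted p under 0.05 were Mrpl17, Mrpl12, Mrpl41, Mrpl11, Mrps12 and Mrps18a, with log2 fold changes of 0.17 to 0.36. Mrps18a, whose protein sits in the large subunit despite its name, is named outside the rule for naming genes, to complete the 11.

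**Figure D4:**
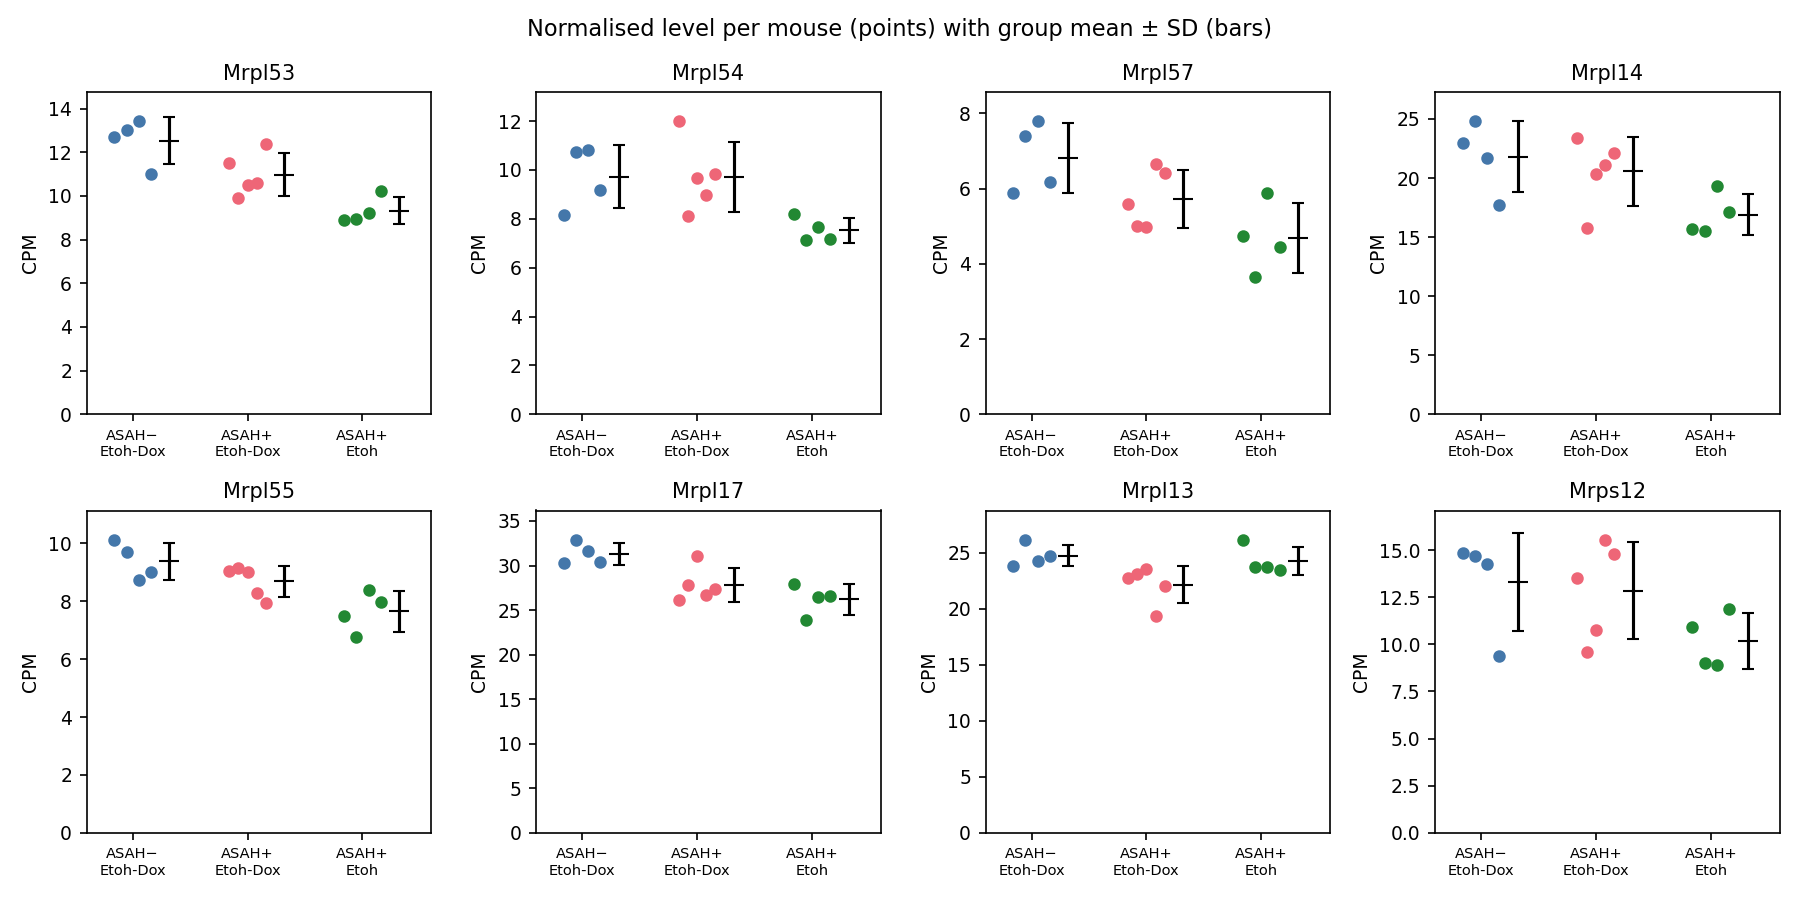
Level of 8 members in each mouse, in CPM normalised by the TMM method, with the group mean ± SD (n = 4, 5 and 4) and axes that start at 0. The Etoh-Dox groups and the Etoh-only ASAH+ mice overlap in every panel when the Etoh-Dox mice are pooled, and only Mrpl53, Mrpl17 and Mrpl55 separate the Dox-fed ASAH- mice from the Etoh-only ASAH+ mice.

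The promoters of the members were described by letters that did not enter the choice of members. Promoter sequence from RefSeq (GRCm38.p6; 250 bases before to 50 after each start site) was matched by symbol for 68 of the 77 members. Letters of 3 factors known from promoters of nuclear mitochondrial genes were searched on both strands, the motif of NRF1, CCGGAAG for ETS factors such as GABPA, and AAGATGGCG for YY1. At least 1 of the 3 was found in 41 of 68 members (60.3%) and in 29.8% of the 10471 genes tested with a promoter in the table. NRF1 letters were found in 19.1% of members beside 10.9% of those genes, ETS letters in 38.2% beside 19.3%, and YY1 letters in 11.8% beside 3.42%. The letters TATAAA were in 7.35% beside 9.75%. The letters searched were settled after promoter sequences had been looked at, and a match is a description of the sequence, not evidence of a bound site.

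The 250 bases before the start site are shown for members on which the comparisons turned, with the letters found there in capitals. The counts above also cover the 50 bases after the start site, which are not printed.
Mrpl53 (chr6:83108858-83109107, plus strand): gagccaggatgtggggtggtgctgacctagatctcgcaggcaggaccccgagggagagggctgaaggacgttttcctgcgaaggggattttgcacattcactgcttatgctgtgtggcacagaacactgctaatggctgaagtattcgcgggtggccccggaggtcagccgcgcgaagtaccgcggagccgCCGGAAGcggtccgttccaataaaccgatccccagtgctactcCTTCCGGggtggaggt
Mrpl57 (chr14:57825989-57826238, plus strand): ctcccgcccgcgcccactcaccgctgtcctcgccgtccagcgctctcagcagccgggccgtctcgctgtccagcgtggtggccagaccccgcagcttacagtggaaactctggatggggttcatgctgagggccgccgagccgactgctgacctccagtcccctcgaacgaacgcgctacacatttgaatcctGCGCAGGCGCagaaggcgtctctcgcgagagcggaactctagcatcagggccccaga
Mrpl17 (chr7:105811088-105811337, minus strand): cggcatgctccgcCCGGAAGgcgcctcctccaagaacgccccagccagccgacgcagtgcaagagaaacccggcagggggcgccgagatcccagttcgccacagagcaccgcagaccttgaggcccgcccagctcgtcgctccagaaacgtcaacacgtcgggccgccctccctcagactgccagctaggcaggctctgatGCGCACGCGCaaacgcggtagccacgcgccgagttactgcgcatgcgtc
Mrpl12 (chr11:120484387-120484636, plus strand): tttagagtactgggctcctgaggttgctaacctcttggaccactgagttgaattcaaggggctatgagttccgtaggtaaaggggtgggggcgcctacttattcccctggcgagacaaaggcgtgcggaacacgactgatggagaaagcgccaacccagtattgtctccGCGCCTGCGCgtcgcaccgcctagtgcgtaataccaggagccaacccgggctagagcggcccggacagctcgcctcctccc
Mrpl55 (chr11:59202236-59202485, plus strand): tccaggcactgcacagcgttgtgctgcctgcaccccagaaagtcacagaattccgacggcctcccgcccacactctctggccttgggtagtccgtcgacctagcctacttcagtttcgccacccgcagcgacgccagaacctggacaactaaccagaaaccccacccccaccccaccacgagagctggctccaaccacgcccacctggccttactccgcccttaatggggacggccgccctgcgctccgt
Mrpl53 holds the ETS letters once on each strand, 59 and 16 bases before the start site, and Mrpl57 and Mrpl12 hold NRF1 letters 57 and 81 bases before it. Mrpl57 also holds ETS letters from base 5 to base 11 after the start site, outside the printed stretch. Mrpl17 holds NRF1 and ETS letters 49 and 237 bases before the start site, and Mrpl55 none of them. Of the 77 members, 23 (29.9%) had another protein-coding gene on the opposite strand whose start lay within 1000 bases upstream or overlapped by less than 200 bases, beside 7.97% of 21814 protein-coding genes. Those 21814 include genes too low to be tested, unlike the members, and the share among tested genes was not computed. Such partners were Ska3 for Mrpl57 and Apba3 for Mrpl54, 49 and 26 bases away, and Sars2, the mitochondrial seryl-tRNA synthetase, for Mrps12, 172 bases away.

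Mrps12, a protein of the decoding centre, stood at 14.8, 14.7, 14.3 and 9.40 CPM in Dox-fed ASAH- mice, 13.5, 9.61, 10.8, 15.6 and 14.8 CPM in Dox-fed ASAH+ mice and 10.9, 9.03, 8.90 and 11.9 CPM in Etoh-only ASAH+ mice. The low Etoh-Dox mice, ASAH- replicate 4 and ASAH+ replicates 2 and 3, lay within the range of the Etoh mice. Its log2 fold change was 0.36 (standard error 0.16, edgeR adjusted p = 0.469). Mrpl12 had 71.5 ± 7.38, 66.1 ± 4.62 and 60.3 ± 3.64 CPM in Dox-fed ASAH- mice, Dox-fed ASAH+ mice and Etoh-only ASAH+ mice, with a log2 difference of 0.19 (standard error 0.075, edgeR adjusted p = 0.433). Mrps7, which helps to organise the head of the small subunit, had 38.0 ± 2.76, 37.9 ± 2.80 and 37.4 ± 0.785 CPM in the same order, and 0.017 on the log2 scale (standard error 0.066). Mrpl45, which tethers the ribosome to the inner membrane near the exit of the nascent chain, had 23.7 ± 1.48, 23.3 ± 1.29 and 22.7 ± 2.14 CPM and a log2 fold change of 0.046 (standard error 0.073). Mrpl58, a peptidyl-tRNA hydrolase built into the large subunit, had 14.6 ± 1.04, 14.7 ± 0.624 and 14.5 ± 1.28 CPM and 0.018 (standard error 0.075). Mrps36 had 5.88 ± 0.594, 5.78 ± 0.876 and 5.54 ± 0.574 CPM and a log2 fold change of 0.075 (standard error 0.12).

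By class, the median log2 fold change on Etoh-Dox was 0.068 for the large subunit members with a bacterial counterpart (20 of 29 above 0), 0.085 for the mitochondria-specific members of the large subunit (16 of 21), 0.054 for the small subunit members with a bacterial counterpart (11 of 16) and 0.041 for the mitochondria-specific members of the small subunit (7 of 10). Large subunit members made up 10 of the 11 with an unadjusted p under 0.05, and Mrps12 was the small subunit member among them. The lowest value of all members was that of Mrps31, a mitochondria-specific small subunit protein, at -0.13 (standard error 0.088). Mrps22, the mitochondria-specific small subunit member with the largest spread, and Mrpl34, the corresponding large subunit member with a bacterial counterpart, had SDs of 0.22 and 0.25 on the log2 scale within groups.

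Most of the members with the smallest p-values had short transcripts. The longest annotated transcript had a median of 940 bases in the 11 members with an unadjusted p under 0.05 and of 1923 bases in the other 66. Of these 11, 6 had transcripts under 1000 bases (Mrpl54, Mrpl14, Mrpl53, Mrpl41, Mrps12 and Mrpl55), while Mrpl17 at 7300 bases had the longest of all members. Members as a whole had shorter transcripts than other genes, with a median of 1849 bases beside 3215 over the genes tested. Shorter genes in general lay slightly higher in the Etoh-Dox mice. Over all genes tested, the median log2 fold change was 0.068 for transcripts under 1000 bases and -0.035 for those of at least 4000 bases. The members in these classes had medians of 0.12 and 0.024. From 1000 to 2000 bases the medians were 0.069 for all genes and 0.063 for the 24 members. From 2000 to 4000 bases they were 0.027 and, for the 25 members, 0.042. Across the 77 members, Pearson's r of the log2 fold change with the log10 of length was -0.36 and with the GC content of the transcript 0.37. Across the 14312 genes with a length these were -0.12 and 0.19. Genes are not independent replicates, and all points share the same 13 libraries. Measured per library, the median log2 deviation from the mean over mice of genes with transcripts under 1000 bases, less that of genes with transcripts of at least 4000 bases, was 0.078 ± 0.12 in Dox-fed ASAH- mice, 0.021 ± 0.059 in Dox-fed ASAH+ mice and -0.066 ± 0.048 in Etoh-only ASAH+ mice (SD, n = 4, 5 and 4). After a correction of each library for transcript length, chosen after the data were seen, the median of the members in this comparison was 0.0065 (all genes -0.0063), and 5 members (6.49%) were higher and 0 lower at an unadjusted p under 0.05, beside 4.28% and 4.75% of all genes in that fit. After a like correction for GC content the median was 0.041 (all genes -0.0052), and 6 members (7.79%) were higher and 0 lower at that p, beside 4.05% and 4.73% of all genes.

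**Figure D5:**
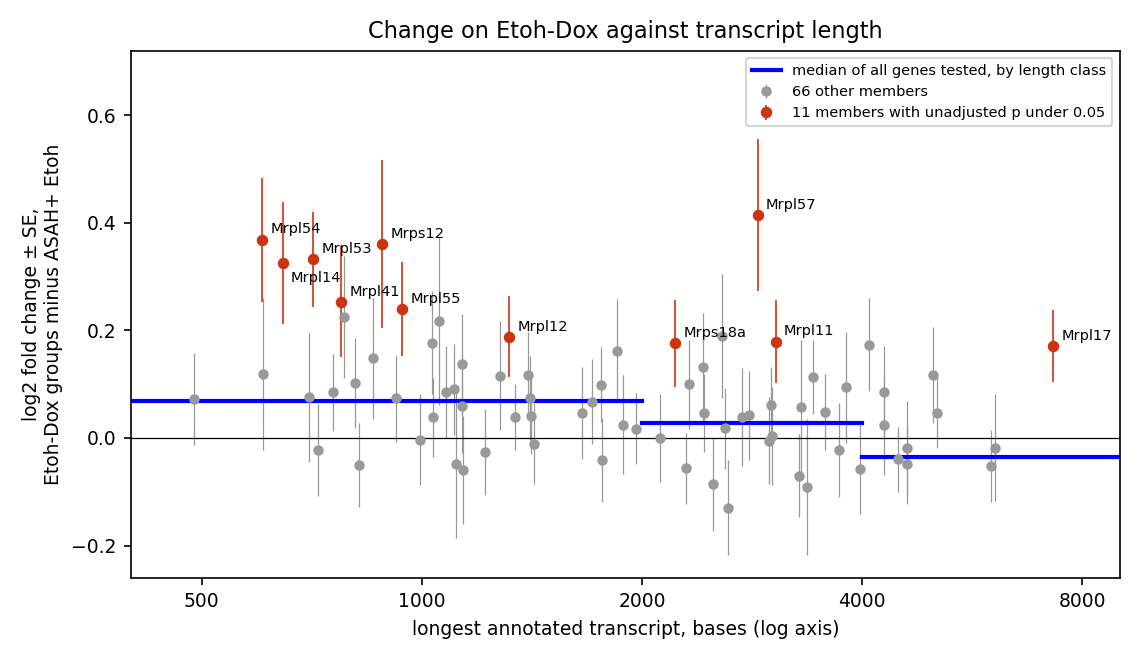
Log2 fold change ± standard error of each member between both Etoh-Dox groups and Etoh-only ASAH+ mice, against the length of its longest annotated transcript on a log axis. Horizontal lines give the median of all genes tested in 4 length classes, from 0.068 under 1000 bases to -0.035 from 4000 bases on, and most of the 11 named members lie at the short end.

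Markers of other cells were examined in the same comparison. All 5 erythroid markers tested were higher on Etoh-Dox at an unadjusted p under 0.05. Of all genes tested, 5.62% were higher and 4.48% lower at that p. The unscaled summed level of the 6 listed ran from 216 to 1687 CPM in Dox-fed ASAH- mice. It ran from 254 to 858 CPM in Dox-fed ASAH+ mice and from 136 to 187 CPM in Etoh-only ASAH+ mice. Hba-a2 and Hba-a1 had log2 fold changes of 2.09 and 2.00 (edgeR adjusted p = 0.316 and 0.326). Of the 9 Kupffer cell and macrophage markers, 9 lay above 0 and 2 had an unadjusted p under 0.05. Their unscaled summed levels were 431 to 870, 314 to 646 and 329 to 414 CPM in the same order. Of the 8 lymphocyte and NK markers tested, 3 were higher at that level, of the 8 stellate and fibroblast markers 2 were higher, and of the 8 endothelial markers 2 were lower. Of the 5 cholangiocyte and 3 neutrophil markers tested, 0 had an unadjusted p under 0.05. Of the hepatocyte markers, Apoa1 had 0.40 and Cps1 -0.54 (edgeR adjusted p = 0.306 for both). EdgeR called 0 of these markers, and their part in the members' values was not tested. In whole liver, fewer cells of a type and less RNA per cell cannot be told apart. The log2 ratio of Dbp to Arntl, clock genes with opposite daily rhythms, ran from -0.96 to 6.49, from -1.64 to 6.78 and from 1.60 to 6.06 in the 3 groups, so the spread within each group was wider than the differences between groups, and with this ratio as a covariate the median of the members was 0.056.

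Dox-fed ASAH- mice and Etoh-only ASAH+ mice differ in Dox and in carrying the transgene, which was induced in neither. Here 60 of 77 members lay above 0, the median log2 fold change was 0.078 (all genes 0.016; 0.049 without ASAH+ Etoh replicate 4 and 0.050 without ASAH- Etoh-Dox replicate 2), and 9 members (11.7%) were higher and 0 lower at an unadjusted p under 0.05, beside 5.08% and 4.1% of all genes tested. EdgeR's quasi-likelihood test called 0 members (0.014% of all genes) and limma-voom 0. DESeq2 on all mice called Mrpl53 (adjusted p = 0.0551), among 150 of 28532 genes called. DESeq2 on these groups alone also called Mrpl53 (adjusted p = 0.0757), among 168 of 26801 genes called. In 4 members (5.19%, beside 3.09% of all genes tested in this direction) every ASAH- mouse on Etoh-Dox lay above every ASAH+ mouse on Etoh. These were Mrpl53, Mrpl17, Mrpl55 and Mrpl12. The log2 fold change of Mrpl53 was 0.43 (standard error 0.10, edgeR adjusted p = 0.389, exact permutation p = 0.0286, the smallest possible for 4 mice against 4). Mrpl57 had the largest, 0.54 (standard error 0.16, edgeR adjusted p = 0.389), with 15 of 16 pairs of mice in that direction. The Dox-fed ASAH- mice had 30.3, 32.9, 31.7 and 30.4 CPM of Mrpl17, the Dox-fed ASAH+ mice 26.1, 27.9, 31.1, 26.7 and 27.4 CPM, and the Etoh-only ASAH+ mice 28.0, 23.8, 26.5 and 26.6 CPM. Mrpl17 (ENSMUSG00000030879; chromosome 7, 105803206 to 105811099, minus strand), a large subunit protein with a bacterial counterpart, had a log2 difference of 0.26 (standard error 0.078, edgeR adjusted p = 0.389). Mrpl55 and Mrpl41, the latter specific to the mitochondrial large subunit, had 0.30 (standard error 0.10) and 0.34 (standard error 0.12). With the counts of Mrpl53 and Gm42688 summed, the value was 0.35 (standard error 0.098, edgeR adjusted p = 0.389). The difference between short and long genes per library was 0.078 and -0.066 on average in these 2 groups, and after the length correction the median of the members was 0.010, with 4 (5.19%) higher and 1 (1.3%) lower at an unadjusted p under 0.05, beside 4.0% and 3.97% of all genes in that fit.

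Within ASAH+ mice, Etoh-Dox and Etoh differ in Dox and in induction of the transgene. The median log2 fold change of the members was 0.062 (all genes 0.013) and 54 of 77 lay above 0. It came to 0.029 without ASAH+ Etoh-Dox replicate 5 and 0.032 without ASAH+ Etoh-Dox replicate 3, with 49 above 0 in each case. After the length correction the median was 0.012 (all genes -0.0032), 40 of 77 lay above 0, and 2 members (2.6%) were higher and 1 (1.3%) lower at an unadjusted p under 0.05, beside 3.26% and 3.82% of all genes in that fit. After the GC correction the median was 0.038, and 3 members (3.9%) were higher and 0 lower at that p, beside 3.01% and 3.84%. With the replicate number as a block these were 0.039, 1 (1.3%) and 0, beside 3.04% and 2.43%. Without corrections or block, at an unadjusted p under 0.05, 5 members (6.49%) were higher and 0 lower, beside 4.04% and 3.24% of all genes tested. EdgeR called 0 members (0.014% of all genes) and limma-voom 0. DESeq2 called 0 on all mice (95 of 28532 genes) and 0 on these groups (113 of 27378 genes). No member separated the groups, beside 2.58% of all genes. Mrpl54 had the largest value, 0.37 (standard error 0.13, edgeR adjusted p = 0.550, exact permutation p = 0.0238), and 19 of 20 pairs of mice were in that direction. Mrpl53 had 0.24 (standard error 0.097) and Mrpl14 0.28 (standard error 0.12). For Mrps10, the level was 17.3, 18.2, 16.5 and 14.6 CPM in Dox-fed ASAH- mice, 16.8, 15.7, 17.6, 19.7 and 20.4 CPM in Dox-fed ASAH+ mice and 15.5, 14.4, 16.1 and 15.5 CPM in Etoh-only ASAH+ mice. Mrps10, a small subunit protein with a bacterial counterpart, had 0.23 (standard error 0.096, edgeR adjusted p = 0.621), and the highest levels were those of 2 Dox-fed ASAH+ mice. Mrpl11, of the base of the large subunit stalk, had 16.7 ± 1.74, 17.2 ± 1.01 and 15.0 ± 0.656 CPM in Dox-fed ASAH- mice, Dox-fed ASAH+ mice and Etoh-only ASAH+ mice, and a log2 fold change of 0.20 (standard error 0.085). The count of 5 was 1 without ASAH+ Etoh-Dox replicate 5 or ASAH+ Etoh replicate 1, 2 without ASAH+ Etoh-Dox replicate 1, ASAH+ Etoh-Dox replicate 4 or ASAH+ Etoh replicate 2, 3 without ASAH+ Etoh replicate 4 and 8 without ASAH+ Etoh-Dox replicate 2. Of all genes, 579 of 14317 were higher at an unadjusted p under 0.05 with all mice. In the fits named, in the same order, 540 of 14264, 396 of 14524, 470 of 14232, 457 of 14226, 533 of 14503, 564 of 14525 and 686 of 14190 were higher.

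Dox-fed ASAH+ and ASAH- mice share Dox and differ in the ceramidase transgene. The median log2 fold change of the members was -0.024 (all genes -0.0023), with 25 above 0, 52 below and 76 within 0.25 of no change. This median moved with single mice. It was -0.0037 (37 above 0) without ASAH+ Etoh-Dox replicate 2, -0.0049 (38 above 0) without ASAH- Etoh-Dox replicate 2, -0.042 (16 above 0) without ASAH- Etoh-Dox replicate 3 and -0.047 (23 above 0) without ASAH- Etoh-Dox replicate 4. These groups share a fit with the Etoh-only ASAH+ mice, and without ASAH+ Etoh replicate 3 or 4 it was -0.014 (31 above 0). After the length correction the median was -0.0075 (34 above 0), and with the replicate number as a block -0.042 (18 above 0). At an unadjusted p under 0.05, 2 members (2.6%) were lower and 0 higher, beside 1.57% and 1.29% of all genes tested. Over the alternatives with all mice, that count of lower members ran from 0 to 5. The 5 came with 1 surrogate variable, beside 2.0% of all genes lower in that fit. The counts of members called were 0 by edgeR (0.014% of all genes) and 0 by limma-voom (2 of 14317 genes). They were 0 by DESeq2 on all mice (12 of 28532 genes) and 0 by DESeq2 on these groups (11 of 27615 genes). Mrpl17 was 31.3 ± 1.23 CPM in ASAH- mice and 27.8 ± 1.94 CPM in Dox-fed ASAH+ mice (SD, n = 4 and 5), a log2 fold change of -0.17 (standard error 0.074, edgeR adjusted p = 0.9996), and 2 of 20 pairs of mice were higher in ASAH+ mice. For Mrpl13, the level was 23.9, 26.1, 24.3 and 24.7 CPM in Dox-fed ASAH- mice, 22.8, 23.1, 23.5, 19.3 and 22.0 CPM in Dox-fed ASAH+ mice and 26.2, 23.7, 23.7 and 23.5 CPM in Etoh-only ASAH+ mice. Every ASAH+ mouse on Etoh-Dox lay below every ASAH- mouse, which made Mrpl13, a large subunit protein with a bacterial counterpart, the 1 member whose groups did not overlap here (1.3% of members, beside 0.447% of all genes in this direction). Its log2 fold change was -0.16 (standard error 0.075, edgeR adjusted p = 0.9996, exact permutation p = 0.0159). The Etoh-only ASAH+ mice, at 24.3 ± 1.27 CPM, lay closer to the ASAH- mice. Mrps26 (9.32 ± 0.385 and 8.03 ± 0.655 CPM) and Mrps18b (28.1 ± 2.47 and 24.7 ± 2.73 CPM), both mitochondria-specific small subunit proteins, had log2 fold changes of -0.22 (standard error 0.10) and -0.18 (standard error 0.094), and Mrpl53 had -0.19 (standard error 0.095). The count of 2 lower members was 0 without ASAH- Etoh-Dox replicate 1, ASAH- Etoh-Dox replicate 2, ASAH+ Etoh-Dox replicate 1, ASAH+ Etoh-Dox replicate 4, ASAH+ Etoh replicate 3 or ASAH+ Etoh replicate 4, 1 without ASAH- Etoh-Dox replicate 3, ASAH+ Etoh-Dox replicate 2 or ASAH+ Etoh replicate 2, and 4 without ASAH- Etoh-Dox replicate 4 or ASAH+ Etoh-Dox replicate 3. Of all genes, 225 of 14317 were lower at an unadjusted p under 0.05 with all mice. In the fits named, in the same order, 245 of 14498, 248 of 14486, 259 of 14232, 206 of 14226, 180 of 14544, 204 of 14525, 163 of 14484, 328 of 14190, 233 of 14503, 373 of 14492 and 217 of 14202 were lower.

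Members varied together only in part. Over the 2926 pairs of members, the correlation of their deviations from the group means across 13 mice had a median of 0.14, and 63.0% of pairs were above 0. All pairs share the same libraries and their scaling. No such value was computed for other genes, so whether members vary together more or less than other genes was not tested. Against the mean of the other members, r ran from -0.46 for Mrps35 to 0.83 for Mrps10, and Mrpl14, Mrps15, Mrpl36 and Mrpl34 followed Mrps10 at 0.83, 0.80, 0.80 and 0.75. Mrps35, Mrps15 and Mrpl36 were chosen after these values were seen.

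The rest of the mitochondrial translation pathway was described from lists of genes. The mRNAs of the 13 proteins encoded by mitochondrial DNA are the templates that this ribosome translates. In the comparison of both Etoh-Dox groups with Etoh-only ASAH+ mice, 2 of the 13 passed the test and both were listed higher. These were mt-Co2 and mt-Co3, subunits of cytochrome c oxidase. Words shared with other genes were counted for the mitoribosomal rows alone. The division of reads between these 2 rows and any nuclear copies was therefore not examined. In Dox-fed ASAH- mice, Dox-fed ASAH+ mice and Etoh-only ASAH+ mice, mt-Co2 had 2103 ± 684, 1385 ± 219 and 745 ± 138 CPM and mt-Co3 8568 ± 769, 6854 ± 609 and 5139.9 ± 559.6 CPM (SD, n = 4, 5 and 4). Their log2 fold changes were 1.20 and 0.58 (edgeR adjusted p = 0.0879 and 0.0691), the list's median was 0.17, and 7 of 13 were higher and 0 lower at an unadjusted p under 0.05, beside 5.62% and 4.48% of all genes tested. With edgeR fitted to these mice as 2 groups instead of 3, 0 genes of the whole table were called, and 1 with the replicate block. With single mice left out the table held 1 to 5 calls beside 6 with all mice, 1 of them without ASAH+ Etoh replicate 1 or without ASAH+ Etoh replicate 4. Between Dox-fed ASAH- mice and Etoh-only ASAH+ mice 2 of the 13 were called (0.014% of all genes). The whole table held 0 calls there with edgeR on these groups alone, at an adjusted p under 0.05, with the replicate block, and with the length or GC correction. With single mice left out it held 2 without ASAH- Etoh-Dox replicate 4, 1 without ASAH+ Etoh-Dox replicate 1 or ASAH+ Etoh replicate 3, and 0 without any other mouse. Of the 13, edgeR called 0 within ASAH+ mice (5 higher at an unadjusted p under 0.05, as were 4.04% of all genes) and 0 between Dox-fed ASAH+ and ASAH- mice (3 lower at that p, as were 1.57% of all genes). The share of all counts on genes of mitochondrial DNA was 7.56 ± 0.27%, 7.31 ± 0.30% and 6.55 ± 0.64% in the 3 groups.

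By edgeR's test 0 genes of the other lists were called in this comparison. Subunits of the ribosome with other names (5 genes) had a median of 0.069 and 5 above 0, and Gadd45gip1 and Chchd1 had 0.33 and 0.089. Of 19 translation factors, 2 were higher and 2 lower at an unadjusted p under 0.05, with a median of -0.010. Gtpbp3, which modifies mitochondrial tRNAs, had 5.13 ± 0.0912, 4.86 ± 0.550 and 3.87 ± 0.214 CPM in the 3 groups and a log2 fold change of 0.37, whereas the elongation factor Gfm1 had 84.5 ± 4.95, 81.3 ± 6.94 and 97.8 ± 13.8 CPM and -0.24 (edgeR adjusted p = 0.306 and 0.387). The 22 aminoacyl-tRNA synthetases had a median of 0.027 and 0 below that p-value, with Pars2 at 0.37 and Vars2 at 0.21. Of 27 assembly factors, 1 was higher (Nme6, 0.36), the median was 0.022, and the next smallest p was that of Mterf3 at -0.15. Of 15 genes of mitochondrial DNA transcription and upkeep, 1 was lower (Trmt10c, a subunit of mitochondrial RNase P, -0.17), the median was 0.0019, and Polrmt, the mitochondrial RNA polymerase, had 0.19. The 10 regulators of nuclear mitochondrial genes had a median of -0.010 and 0 below that p-value, with Yy1 at -0.17 and Nrf1 at 0.16. Of 17 genes of the mitochondrial stress response, 1 was lower, the chaperonin Hspd1 at -0.24, Shmt2 of mitochondrial folate metabolism had 0.25, and the median was 0.086.

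Mrpl23 is a large subunit gene with a bacterial counterpart (chromosome 7, 142532686 to 142540747, plus strand). It was left out by the minimum level, at an unscaled mean of 0.759 CPM (5 to 40 counts per mouse). Its pseudogene Mrpl23-ps1 (chromosome 2, 74591330 to 74591909, minus strand) was listed at an unscaled mean of 16.5 CPM. Of the pseudogene's 539 words of 31 bases, 510 occur in Mrpl23. The files do not show from which of the 2 genes these reads came. Their summed level, scaled with TMM factors, was 18.2 ± 1.62 CPM in Dox-fed ASAH- mice and 17.8 ± 1.61 CPM in Dox-fed ASAH+ mice. In Etoh-only ASAH+ mice it was 15.7 ± 1.53 CPM (SD, n = 4, 5 and 4). The log2 fold change of the sum between both Etoh-Dox groups and Etoh-only ASAH+ mice was 0.20 (standard error 0.088, edgeR adjusted p = 0.484). Mrps36 with its pseudogene Mrps36-ps2, at an unscaled mean of 1.24 CPM, gave -0.0081 (standard error 0.11).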

How the data were processed

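Whole liver RNA of 13 mice was sequenced by the authors as stranded mRNA libraries with single reads of 100 bases, quantified with salmon against GENCODE M19 (GRCm38.p6) and summarised per gene by tximport. What the authors deposited are estimated counts, rounded to whole numbers (100% were whole), and the authors tested them with DESeq2. Groups were taken from the sample descriptions, and the numbers in the titles served as replicate numbers. Each column was matched to 1 mouse. Depth was 17819486 to 35358711 counts per mouse, and levels carry counting error as well as the spread between mice.

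Counts were scaled by TMM in edgeR 4.0.16 (R 4.3.3). EdgeR's quasi-likelihood test (robust, 3 groups, all mice, genes kept by filterByExpr) was run over 14317 genes with Benjamini-Hochberg adjustment and a threshold of 0.1. Standard errors are the size of the log2 fold change over the square root of F. Single members were also compared by exact two-sided permutation of mean log2 CPM (prior count 2). Each mouse is 1 animal, so p-values measure the spread between mice. Genes were placed with GENCODE M21 of the same genome, in which 53355 IDs were found. The fit of 9 mice against 4 was tested on simulated data. The planted changes were larger than any member's difference in that comparison, so the simulation does not cover differences as small as the members'.

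Members and lists were chosen with earlier results of these data known. The text names, for each comparison, the 5 members with the smallest p, the 3 highest and 3 lowest levels per kilobase, the widest spread in each of 4 classes, 6 members with known roles, and the 2 genes with the smallest p in each other list. Alternatives covered DESeq2 1.42.0, limma-voom (limma 3.58.1), a surrogate variable (sva 3.50.0), scaling, count filters, the member rule, a Dbp to Arntl covariate, a replicate block, single mice left out and, chosen after seeing the data, corrections for transcript length and GC content (loess span 0.5) and summed counts of overlapping or near-identical genes.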

Additional observations from a re-analysis of the deposited data

Results flagged for a closer look

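Among 78 sets of values of named members or their sum within a group, 3 held a mouse far from the others of its group, beside about 5% that chance gives. Mrpl13 stood at 26.2 CPM in ASAH+ Etoh replicate 1 and at 23.5 to 23.7 CPM in the other mice of that group. In ASAH- Etoh-Dox replicate 4, Mrpl27 stood at 22.0 CPM beside 25.9 to 26.3 CPM in the other mice of the group, and Mrps12 at 9.40 CPM beside 14.3 to 14.8 CPM.

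Mrpl23-ps1, a row outside the members, was listed at an unscaled mean of 16.5 CPM over the mice, above the unscaled 0.759 CPM of Mrpl23 itself.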

How the results depend on the processing

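The median of the members kept its direction in each of the 4 comparisons under the 29 alternatives that gave one, between 0.0065 and 0.078 for both Etoh-Dox groups against Etoh-only ASAH+ mice, -0.047 and -0.0037 for Dox-fed ASAH+ against ASAH- mice, 0.012 and 0.067 within ASAH+ mice, and 0.010 and 0.10 for Dox-fed ASAH- mice against Etoh-only ASAH+ mice. Among these alternatives, the minimum of 5 CPM kept the same 77 members and the fit without robust dispersion kept the same medians. Neither bears on the direction. The values of 0.0065, 0.012 and 0.010 nearest 0 in the 3 comparisons with Etoh-only ASAH+ mice came from the transcript length correction, and the cause was not tested. With single mice left out, the counts of members called were 0 in each fit, and the medians ranged from 0.044 to 0.078, -0.047 to -0.0037, 0.029 to 0.067 and 0.049 to 0.10 in the same order.

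DESeq2 on all mice called 1 member in the first and 1 in the last comparison, and DESeq2 on the groups compared called 1 in the last. Each was Mrpl53, whose adjusted p ran from 0.0789 to 0.623 and from 0.0551 to 0.717 over the alternatives, and the cause was not tested. At an unadjusted p under 0.05, DESeq2 on all mice gave 9 higher and 0 lower, 0 and 1, 4 and 1, and 8 and 0 members, beside 2.81% and 2.94%, 0.915% and 0.848%, 2.15% and 2.16%, and 2.48% and 2.75% of all genes in that fit. Limma-voom gave 9 and 0, 0 and 3, 4 and 0, and 8 and 0, beside 4.81% and 4.44%, 1.31% and 1.66%, 3.56% and 3.36%, and 4.44% and 4.19%. The DESeq2 shares are over 28532 genes without a count filter, and those of limma-voom over 14317 genes kept by filterByExpr. These shares are therefore not alike. For edgeR in the first comparison, 5.62% of 14317 genes were higher with the filter and 3.34% of 28557 without it. Over all genes, DESeq2 on all mice called 215, 12, 95 and 150 genes, beside 6, 2, 2 and 2 by edgeR. DESeq2 on the groups compared called 168 genes in the last comparison.

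Same-numbered mice had a mean correlation of -0.046 over 12 pairs, beside 0.013 over 44 other pairs, so the numbers were not taken to pair them. With the replicate block, the medians were 0.053, -0.042, 0.039 and 0.074, edgeR called 0 members, and 5, 1, 1 and 8 members had an unadjusted p under 0.05, beside 7.99%, 1.5%, 5.47% and 7.17% of all genes.

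Members near 0 changed sign in the first comparison. Mrps7 (0.017) was -0.0038 with the replicate block, -0.037 with the length correction, -0.065 with the GC correction and -0.020 to 0.032 with single mice left out. Mrpl58 (0.018) was -0.022 with the length correction and -0.046 to 0.053 with single mice left out, and Mrps36 (0.075) was -0.019 with the length correction. The lowest count of a member in a mouse was 77, for Mrpl57.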
